A study of Mus musculus with 9 samples.

Results

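The immunoglobulin loci hold the gene segments from which B cells assemble antibody genes, and they were examined here in T cells for occupancy by CTCF. CTCF is a zinc-finger protein that binds insulators and holds the ends of chromatin loops. The members were the CTCF peak regions that overlapped 3 windows in mm9: the heavy chain locus at chr12:114400000-117300000, the kappa light chain locus at chr6:67400000-70750000 and the lambda light chain locus at chr16:19000000-19300000. Peaks of the 8 libraries were joined wherever they shared 1 bp or more, which gave 39574 regions, and 99 of these lay in the windows: 81 in the heavy chain, 17 in the kappa and 1 in the lambda window. The windows were set by position and not by measured values. RNA was not measured in these libraries, so whether the loci were transcribed was not tested.

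The cells were GFP+ TCRbeta+ CD62Lhi CD44lo-med CD8+ T cells sorted from mouse spleen. All mice are described as carrying hCD2-Cre, a recombinase under human CD2 control elements that acts in lymphocytes, and the Rosa26-lsl-GFP reporter. They were wild type (WT) for Tcf1 and Lef1 or double floxed, and the cells of the latter are labelled Tcf1-/-Lef1-/- (DKO). Tcf1 and Lef1 are related HMG-box factors that act in T cells. CTCF was mapped by CUT&RUN, in which a nuclease tethered to an antibody cuts out the DNA around the bound protein, in naive cells (0 h) and in cells cultured for 72 h in IL-7 plus IL-15. There were 2 CTCF libraries per group in 4 groups, plus 1 IgG library of naive WT cells. No label ties the replicates to separate animals, and p-values therefore measure the spread between these samples, which may be technical. The labels do not give the age of the mice.

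In B cell precursors, variable (V), diversity and joining segments are brought together by recombination, and CTCF and cohesin help to fold the loci so that distant V segments can reach the joining segments. A known insulator with CTCF sites lies between the heavy chain V and diversity segments, another group of CTCF sites lies beyond the constant genes, and CTCF also binds between the kappa V and joining segments. In the RefSeq gene order of GRCm38, the heavy chain locus starts with its 8 constant genes at the low-coordinate end, near Tmem121, and its 183 V segments run up to Zfp386. The kappa locus runs the other way: its 162 V segments come first, and its constant gene Igkc is last, before Rpia. Neither an mm9 genome nor an mm9 annotation was used here, so no region was assigned to a gene segment or a named element, and no sequence is given.

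Peak lists at 72 h were shorter than at 0 h. The CTCF lists held 30309 to 32587 peaks at 0 h, 17335 and 26630 for cultured WT, and 10339 and 16234 for cultured DKO. Every CTCF list held peaks of fold 4 or more only, where fold is the authors' enrichment of a peak over its local background. An absent peak therefore means that no peak was called at that strength. The IgG list held 5 peaks, of which 0 lay in the windows. Read totals are not in the peak lists, so the depth is unknown.

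Against the mean density of the rest of its chromosome, the heavy chain window was dense in CTCF peaks and the kappa window was sparse. The median distance between neighbouring regions, given below, was nevertheless wider in the heavy chain window than over all regions. The heavy chain window held 27.9 regions per Mb against 13.0 over the rest of chromosome 12, measured from the first to the last region of the chromosome. By library it held between 8.62 and 25.5 peaks per Mb, 2.35 to 3.39 times the density of the rest of the chromosome in the same list. The log2 ratio was 1.40 ± 0.18 (SD, n = 8) and positive in 8 of 8 libraries (exact two-sided sign-flip permutation test, p = 0.00781, adjusted p = 0.0117 over 3 loci). The kappa window held 5.07 regions per Mb against 14.9 over the rest of chromosome 6. Its ratio per library ran from 0.306 to 0.467, with a log2 ratio of -1.45 ± 0.18 (SD, n = 8) that was negative in 8 of 8 libraries (exact permutation test, p = 0.00781, adjusted p = 0.0117). These tests measure the spread between libraries that share 1 genome sequence, and 0.00781 is the smallest p the sign-flip test can give with 8 libraries. The kappa log2 ratio was -2.55 when 100 kb was taken off each end of the window. The lambda window held 1 peak in each library, too few to describe a density.

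**Figure D1:**
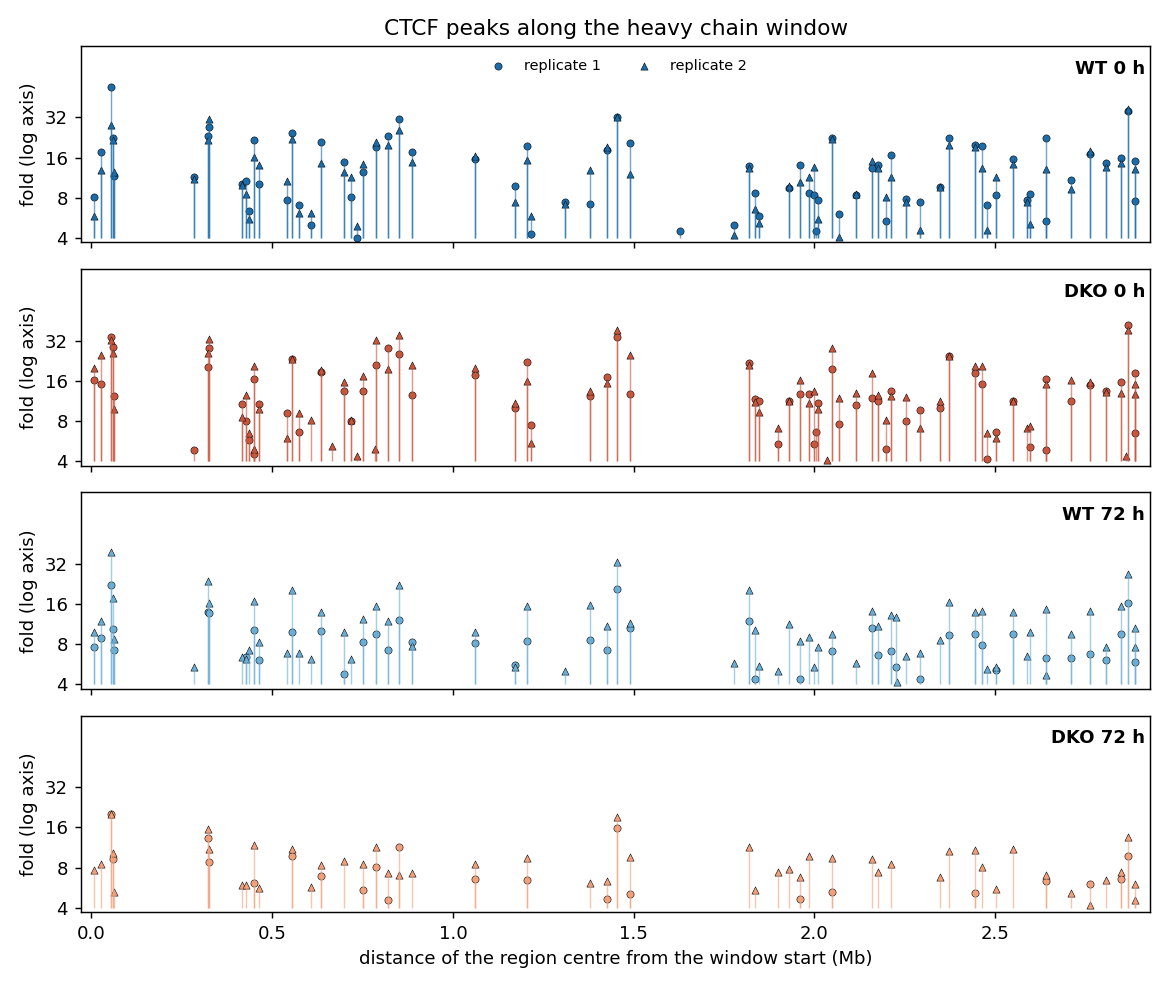
CTCF peaks in the heavy chain window. The x axis is the distance of each region's centre from the window start in Mb, the y axis the authors' fold on a log axis, with 1 panel per group, circles for replicate 1 and triangles for replicate 2. Peaks run along the whole window in both genotypes at 0 h, and the panel of DKO at 72 h holds the fewest, with 23 and 50 of 81 regions. The lists of these libraries were the shortest, with 10339 and 16234 peaks, and held 25.6% and 40.03% of all regions. WT replicate 1 at 72 h had 46 of 81, fewer than DKO replicate 2.

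In naive cells the heavy chain window carried a long series of sites in both genotypes. At 0 h, 73 and 69 of its 81 regions had a peak in the WT libraries and 69 and 73 in the DKO libraries, the same range in both genotypes. Most regions of the whole table had a peak in these libraries too, 81.3% and 77.1% in WT and 75.7% and 78.5% in DKO. The median distance between neighbouring regions was 25.04 kb, with quartiles of 12.9 and 42.5 kb, against a median of 15.2 kb and quartiles of 4.66 and 42.2 kb over all 39554 distances in the table. The coefficient of variation of the distances was 1.11 in the heavy chain window and 4.17 over all. Distances over all regions ran up to 11630.6 kb, longer than the whole window, so these coefficients are not directly comparable. The longest stretch of the window without a region was 221 kb at chr12:114462959-114684104, near the end where the constant genes lie in the RefSeq order. It was followed by 173 kb at chr12:115287757-115460300 and 148 kb at chr12:116029380-116177806. The densest 100 kb held 7 regions between 116358931 and 116448333, a number reached from 30.0% of all regions.

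The 2 heavy chain regions of highest mean rank by the authors' p-value lay close to the low-coordinate end, and were the 2 widest: chr12:114453919-114456677, 2759 bp wide, and chr12:114457388-114461545, 4158 bp wide. Over all regions of the table, 2.18% were at least 2000 bp wide, and the median width was 747 bp, against 783 bp in the windows. At chr12:114453919-114456677 the fold was 53.8 and 28.0 in naive WT, 33.9 and 32.3 in naive DKO, 22.2 and 39.2 in cultured WT and 20.01 and 20.2 in cultured DKO cells. At chr12:114457388-114461545 it was 22.6 and 21.6 in naive WT, 28.6 and 25.9 in naive DKO, 10.5 and 17.7 in cultured WT and 9.27 and 10.3 in cultured DKO cells. Both ranked within the top 4% of every list, with rank percentiles by the authors' p-value between 96.3 and 99.8. At 0 h the folds of the genotypes overlapped at the first of them, while at the second both DKO folds were above both WT folds. Ranked among regions found in all 4 naive libraries, the genotypes overlapped at the second too (WT 99.48 and 99.69, DKO 99.70 and 99.68).

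A pair of regions found in every library followed after the long stretch without sites. These were chr12:114723082-114724094 and chr12:114725711-114726574, 324 and 326 kb from the window start. The first had folds of 23.3 and 21.9 in naive WT, 20.4 and 25.9 in naive DKO, 13.9 and 23.8 in cultured WT and 13.4 and 15.5 in cultured DKO cells. The second had folds of 27.1 and 31.1 in naive WT, 28.4 and 32.7 in naive DKO, 13.7 and 16.4 in cultured WT and 8.78 and 11.03 in cultured DKO cells. At 0 h the values of the 2 genotypes overlapped at both regions. Further on, chr12:115853143-115854420, in the middle of the window, had 32.1 and 31.99 in naive WT, 34.2 and 38.8 in naive DKO, 20.9 and 33.0 in cultured WT and 15.9 and 19.2 in cultured DKO cells. Near the far end, chr12:117266082-117268036 had 35.8 and 36.9 in naive WT, 42.3 and 38.3 in naive DKO, 16.4 and 27.2 in cultured WT and 9.71 and 13.7 in cultured DKO cells. Fold is measured within each library, so its level at 0 h and 72 h is given side by side and was not compared.

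Other sites found in every library were chr12:114848730-114849737, chr12:114954211-114955223, chr12:115185851-115187195 and chr12:115250464-115251894, with folds from 16.1 to 35.1 at 0 h and from 6.09 to 22.4 at 72 h. In all, 28 of the 99 regions had a peak in all 8 libraries (28.3%), 23 in the heavy chain, 4 in the kappa and 1 in the lambda window. Over the whole table the share was 24.2%, so the windows were close to the background.

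The window was also split at its midpoint, a split chosen after the values were seen. On the low-coordinate side, 14 of 36 regions (38.9%) had a peak in all 8 libraries, against 9 of 45 (20%) on the high-coordinate side. Over all regions of the table the share was 24.2%. Naive libraries found 31 to 34 of the 36 and 36 to 40 of the 45, and 75.7% to 81.3% of all regions. At 72 h, WT held 23 and 31 regions on the low side and 23 and 39 on the high side (42.8% and 65.9% of all regions). DKO held 14 and 24 on the low side and 9 and 26 on the high side at 72 h (25.6% and 40.03% of all regions). Among heavy chain regions found in all 4 naive libraries, the median of the mean naive fold was 16.4 on the low side and 13.0 on the high side. The difference between the sides was not tested.

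**Figure D2:**
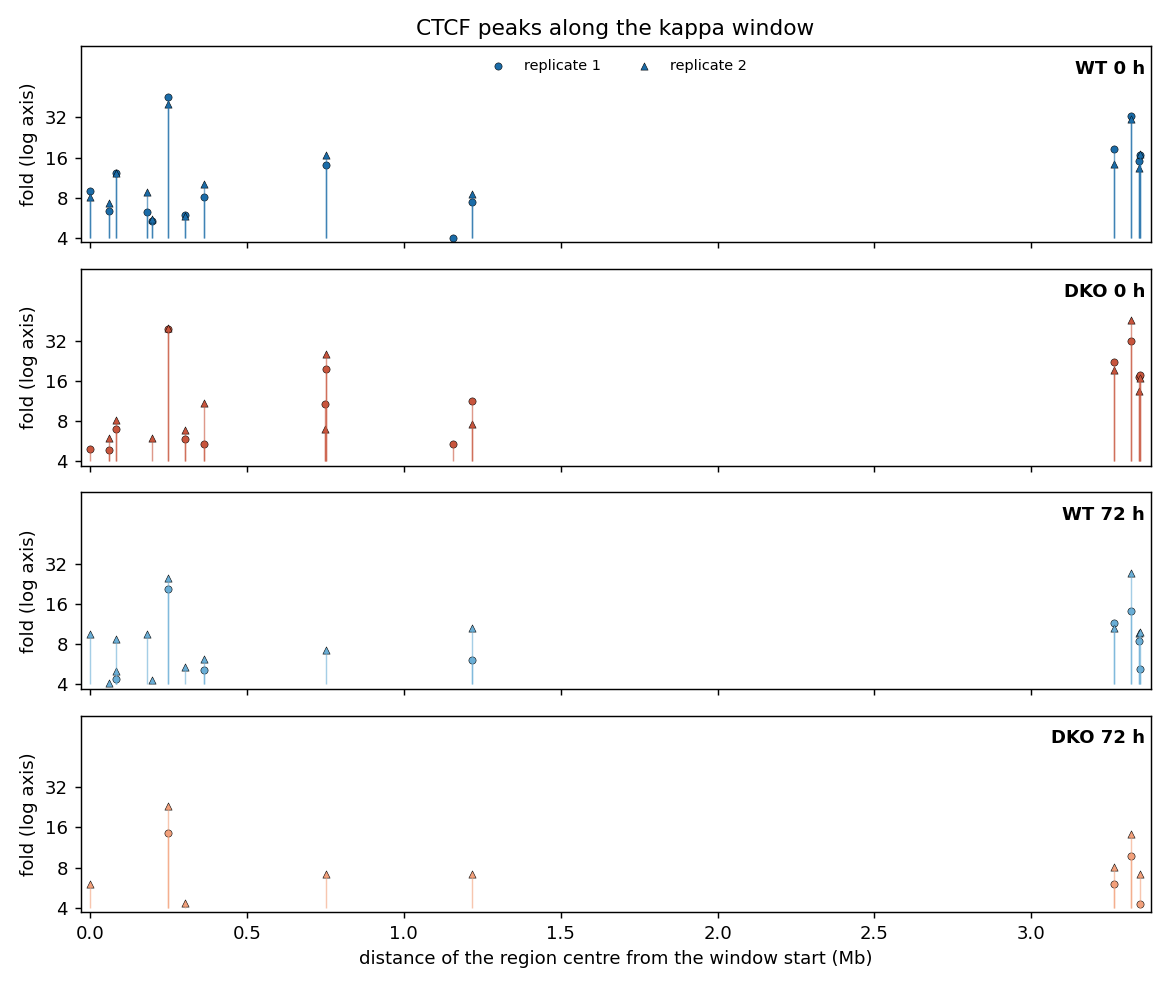
CTCF peaks in the kappa window. The x axis is the distance of each region's centre from the window start in Mb, the y axis the authors' fold on a log axis, with 1 panel per group, circles for replicate 1 and triangles for replicate 2. No library has a peak in the 2.04 Mb between 13 regions at the left and 4 regions at the right.

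The kappa window consisted of a group of sites at each end and a long empty stretch. Over 2.04 Mb, at chr6:68619143-70663064, no library had a peak. Of the 39554 distances between neighbouring regions in the table, 148 were longer, and 0.377% were at least as long. On the low-coordinate side, where the V segments begin in the RefSeq order, 13 regions lay between 67401031 and 68619142, with further stretches of 404 and 385 kb between them. Its densest 100 kb held 4 regions, and 62.4% of all regions reach that number.

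The kappa region of highest mean rank was chr6:67648566-67649576, on the low-coordinate side. Its fold was 45.6 and 40.2 in naive WT, 38.9 and 39.9 in naive DKO, 20.9 and 24.9 in cultured WT and 14.5 and 23.2 in cultured DKO cells. It ranked at the percentile of 92.7 or above in all 8 lists. The 4 regions beyond the empty stretch, at the end where Igkc lies in the RefSeq order, were found in both libraries of WT and DKO at 0 h and of WT at 72 h. The strongest of them, chr6:70718545-70719525, had 32.8 and 31.0 in naive WT, 32.02 and 45.8 in naive DKO, 14.1 and 27.5 in cultured WT and 9.71 and 14.4 in cultured DKO cells. The first, chr6:70663065-70664775, had 18.6 and 14.4 in naive WT, 22.1 and 19.5 in naive DKO, 11.6 and 10.6 in cultured WT and 6.03 and 8.09 in cultured DKO cells. Both naive DKO folds at this region were above both naive WT folds, while the ranks among regions found in all 4 naive libraries overlapped. At 72 h the WT and DKO folds overlapped at chr6:70718545-70719525, and both WT folds were above both DKO folds at chr6:70663065-70664775. Fold is measured within each library, and list medians at 72 h were 7.89 and 9.06 in WT and 7.03 and 8.05 in DKO. The same order at 72 h was seen at other named regions, among them chr12:114725711-114726574, chr12:115853143-115854420, chr12:117266082-117268036 and the lambda region. At chr6:67648566-67649576 and chr12:114723082-114724094 the folds overlapped. The order is thus not particular to chr6:70663065-70664775. It was not counted over all regions and was not tested.

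The last kappa region, chr6:70747598-70748493, had 16.8 and 17.0 in naive WT, 17.6 and 16.7 in naive DKO, 5.25 and 9.81 in cultured WT and 4.25 and 7.12 in cultured DKO cells. Its neighbour chr6:70741922-70742703 had 15.0 and 13.3 in naive WT, 17.2 and 13.3 in naive DKO, then 8.51 and 9.66 in cultured WT. It had no peak in either DKO library at 72 h. The first kappa region, chr6:67401031-67401700, had 9.0 and 8.15 in WT and 4.92 in DKO replicate 1 at 0 h, and 9.48 in WT replicate 2 and 6.0 in DKO replicate 2 at 72 h.

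The lambda window held 1 region near its start, chr16:19002396-19003476. Its fold was 12.5 and 15.99 in naive WT, 12.7 and 18.4 in naive DKO, 9.64 and 15.7 in cultured WT and 6.88 and 9.25 in cultured DKO cells. The next region of chromosome 16 followed after 663 kb, a stretch that passes the end of the window, and 1.5% of all distances were at least as long.

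In naive cells most immunoglobulin regions had a peak in either genotype, and at 72 h the libraries ranged widely. Both held over all regions too. Naive WT had 89 and 84 of 99 (89.9% and 84.8%, against 81.3% and 77.1% of all regions). Naive DKO had 84 and 87 (84.8% and 87.9%, against 75.7% and 78.5%). At 72 h WT had 55 and 86 (55.6% and 86.9%, against 42.8% and 65.9%). DKO had 28 and 59 at 72 h (28.3% and 59.6%, against 25.6% and 40.03%). The means were 86.5 ± 3.5 (SD, n = 2) and 85.5 ± 2.1 at 0 h, and 70.5 ± 21.9 and 43.5 ± 21.9 at 72 h in WT and DKO. The 72 h libraries had 29 fewer regions on average (difference of -29, two-sided exact permutation stratified by genotype, n = 4 against 4, p = 0.111, adjusted p = 0.296 over 8 tests). WT replicate 2 at 72 h, with 86 regions, lay inside the range of the naive libraries. DKO had 14 fewer than WT over both times (difference of -14, exact permutation test within time, p = 0.444, adjusted p = 0.593). Neither difference was larger than the spread between libraries by this test, whose smallest possible p is 0.0556.

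**Figure D3:**
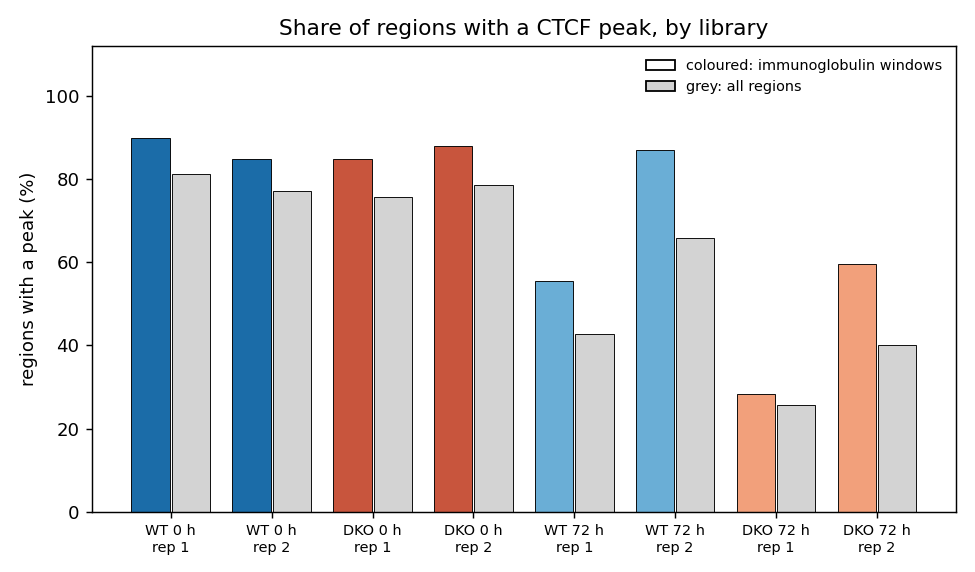
Share of regions with a CTCF peak in each library. The y axis is the percentage of regions with a peak, with coloured bars for the 99 immunoglobulin regions and grey bars for all 39574 regions. The coloured bar is the taller in all 8 libraries, from 28.3% against 25.6% in DKO replicate 1 at 72 h to 86.9% against 65.9% in WT replicate 2 at 72 h.

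These counts moved with the length of the lists. Immunoglobulin peaks made up 0.271% to 0.280% of the lists at 0 h. At 72 h they made up 0.317% and 0.334% in WT, and 0.290% and 0.370% in DKO. The share was thus higher in each library at 72 h than in any at 0 h, by 0.05 percentage points (exact permutation stratified by genotype, n = 4 against 4, p = 0.0556, which is the lowest value this test can give, adjusted p = 0.296). The increase was 0.0188 points with narrowed windows and 0.0084 points for peaks of fold 8 or more. DKO and WT shares differed by 0.00463 points (exact permutation test within time, p = 0.722, adjusted p = 0.722), and this sign changed with the settings. In lists shortened to the strongest 10339 peaks each, WT held 26 and 22 immunoglobulin regions and DKO 27 and 30 at 0 h, against 30 and 30 in cultured WT and 28 and 35 in cultured DKO. There the differences reversed, to 4.5 more regions at 72 h (exact permutation p = 0.111) and 3 more in DKO (p = 0.278).

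Immunoglobulin peaks were of middling strength within their lists. Their median fold was 10.8 and 12.4 in naive WT and 12.4 and 13.0 in naive DKO, against list medians of 10.1, 9.78, 10.4 and 10.3. In cultured WT it was 8.27 and 9.66 and in cultured DKO 6.69 and 7.97, against 7.89, 9.06, 7.03 and 8.05. The median rank percentile was 51.5 to 56.2 at 0 h, 47.0 and 51.4 in cultured WT, and 38.7 and 43.7 in cultured DKO. The lists at 72 h are of unequal length, so these ranks do not show a change. Across immunoglobulin regions found in both replicates, Spearman's rho of the fold was 0.90 over 84 regions in naive WT and 0.88 over 79 in naive DKO, 0.81 over 55 in cultured WT and 0.68 over 28 in cultured DKO. The points of each value share 2 libraries.

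**Figure D4:**
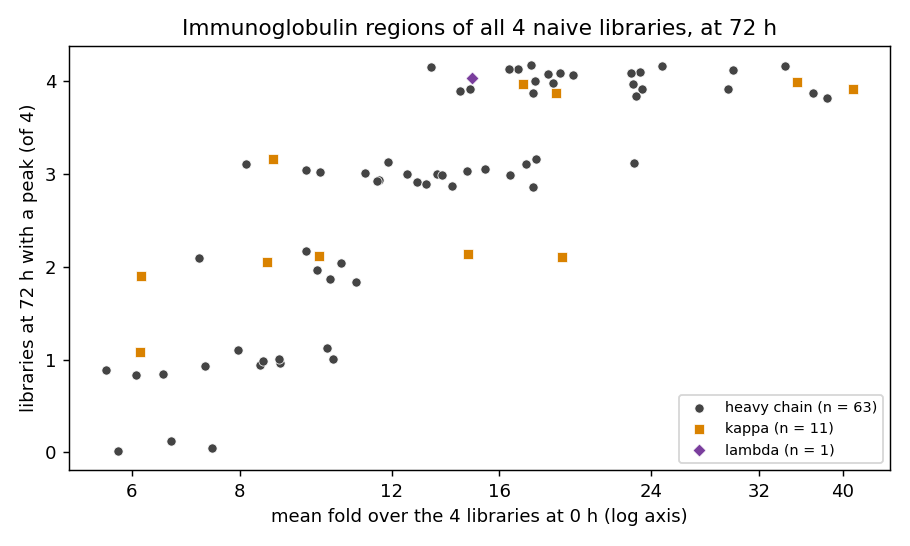
Naive fold of the 75 immunoglobulin regions found in all 4 libraries at 0 h, and their recovery at 72 h. The x axis is the mean fold over the 4 naive libraries on a log axis, and the y axis the number of 72 h libraries with a peak, with points spread vertically for visibility. The 28 regions with 4 of 4 have naive folds of 13.3 or more, and the 3 with 0 of 4 lie between 5.78 and 7.43.

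Regions found in every library at 72 h had higher naive folds than those found in none. Of the 99 regions, 75 had a peak in all 4 naive libraries (75.8%, against 61.8% of all regions). Of these 75, 54 and 72 had a peak in the WT libraries at 72 h (72.0%, exact Clopper-Pearson 95% interval 60.4% to 81.8%, and 96.0%, 88.8% to 99.2%). In the DKO libraries at 72 h these numbers were 28 and 55 (37.3%, 26.4% to 49.3%, and 73.3%, 61.9% to 82.9%). The same shares over all 24438 such regions were 65.2% and 86.9% in WT and 40.9% and 62.7% in DKO. Intervals cover counting error only. The 28 immunoglobulin regions found in all 8 libraries had a median naive fold of 19.1 (range 13.3 to 41.1). The 44 found in 1 to 3 libraries at 72 h had a median of 10.2 (5.60 to 22.9), and the 3 found in none had 6.65 (5.78 to 7.43).

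Recovery was also read within 4 bands of naive rank, bounded by the rank percentiles of 38.3, 59.7 and 79.6. In the lowest band, 5 and 15 of 18 immunoglobulin regions had a peak in cultured WT (27.8% and 83.3%, against 22.8% and 64.5% of all regions of that band). In cultured DKO, 0 and 3 of the 18 did (0% and 16.7%, against 3.50% and 17.6%). In the band from 38.3 to 59.7, 18 and 25 of 25 were kept in WT (72.0% and 100%, against 54.8% and 86.7%) and 4 and 21 in DKO (16% and 84.0%, against 16.7% and 52.3%). In the band from 59.7 to 79.6, 19 and 20 of 20 were kept in WT (95% and 100%, against 85.8% and 96.9%) and 13 and 19 in DKO (65.0% and 95%, against 54.6% and 83.9%). Above 79.6, 12 and 12 of 12 were kept in WT (100% each, against 97.3% and 99.6%) and 11 and 12 in DKO (91.7% and 100%, against 88.6% and 96.9%). The WT shares were thus above those of all regions in every band. In DKO, 0 and 3 of 18 in the lowest band and 4 of 25 in the next lay near the shares of all regions. The other DKO shares were above those of all regions. With lists of equal length, 18 immunoglobulin regions were shared by the naive libraries. Of these, cultured WT kept 77.8% and 88.9% (against 88.8% and 89.7% of all such regions). Cultured DKO kept 94.4% in each library (against 83.9% and 89.2%). WT thus no longer lay above all regions, and with 18 regions a share moves in large steps. These differences were not tested.

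Few immunoglobulin regions were specific to a genotype in naive cells. A region counted as specific when both libraries of a group had a peak and neither of the other group did. In 3 of 99 regions the peak was in WT at 0 h and not in DKO (3.03%, against 4.88% of all regions), and in 3 of 99 the reverse (3.03%, against 2.73%). The WT-specific regions were chr6:67581565-67582135 (fold 6.23 and 8.83), chr12:115710820-115711272 (7.40 and 7.17) and chr12:116177807-116178222 (5.03 and 4.23). At 72 h each of these had a peak in WT replicate 2 (9.62, 5.06 and 5.80) and in no other 72 h library. The DKO-specific regions were chr6:68147740-68148400 (fold 10.8 and 6.92), chr12:116298171-116298821 (5.36 and 7.09) and chr12:114849984-114850369 (4.50 and 4.94). At 72 h chr12:116298171-116298821 had a peak in WT replicate 2 (5.06) and in DKO replicate 2 (7.39), and the others had none.

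All 6 lay at or below the middle ranks of their lists, with percentiles from 0.675 to 50.8. With 1 DKO library left out, the number of WT-specific regions was 5 of 100 without replicate 1 (5.0%, against 7.21% of all regions) and 7 of 95 without replicate 2 (7.37%, against 8.08%). The number of DKO-specific regions was 7 of 100 without DKO replicate 1 (7.0%, against 7.5%). With -log10 q of at least 5 it was 1 of 87 (1.15%, against 2.87%).

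Among regions shared by all 4 naive libraries, ranks were compared over the same 24438 regions, a comparison added after the values were seen. In 15 of the 75 immunoglobulin regions both DKO ranks lay above both WT ranks (20%, against 22.4% of all), and in 12 the reverse (16%, against 21.4%). Both shares were near or below the background. The widest gap was at the first region of the heavy chain window, chr12:114406123-114406829. Its fold was 8.07 and 5.87 in naive WT, 16.1 and 20.002 in naive DKO, a rank percentile of 14.8 and 7.6 against 53.1 and 61.7. At 72 h its fold was 7.64 and 9.85 in WT and 7.62 in DKO replicate 2, with no peak in DKO replicate 1.

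Next to each other, chr12:116219482-116220315, chr12:116234769-116235647 and chr12:116246471-116247086 also ranked higher in DKO at 0 h. Their mean rank percentiles were 44.3, 18.1 and 5.43 in WT and 66.6, 38.3 and 32.3 in DKO. In the other direction the widest gap was at chr6:67481143-67482243, with ranks of 41.2 and 46.7 in WT against 12.1 and 20.3 in DKO, and folds of 12.2 and 12.2 against 6.96 and 8.14. These regions were picked for their gaps, so the gaps are a description.

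At 72 h the genotype-specific regions were on the WT side. In 6 of 99 regions cultured WT cells had the peak in both libraries and cultured DKO cells in none (6.06%, against 6.37% of all regions), and in 0 of 99 the reverse (against 0.0303%). The leading 5 were chr6:70741922-70742703 (fold 8.51 and 9.66), chr12:116626590-116627120 (5.39 and 12.8), chr6:67481143-67482243 (4.38 and 8.75), chr12:116690762-116691392 (4.39 and 6.91) and chr12:115570694-115571365 (5.64 and 5.43). Of these 5, all but chr12:116626590-116627120 were also called in both naive DKO libraries. The count was 27 (27.3%) both without WT replicate 1, the shortest WT list (against 25.8% of all regions), and without DKO replicate 2, the longest DKO list (against 17.4%). With lists of equal length 1 of 45 regions was specific to WT (2.22%, against 3.03%) and 1 to DKO (2.22%, against 2.78%).

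In WT cells, 4 of 99 regions were called in both naive libraries and in no cultured one (4.04%, against 13.0% of all regions). They were chr12:116598348-116598790 (fold 5.37 and 8.15), chr12:116467995-116468757 (6.08 and 4.07), chr12:115616993-115617804 (4.26 and 5.87) and chr12:115133972-115134764 (4.02 and 4.89). All are heavy chain regions with rank percentiles of 31.2 or lower in the WT lists. Without WT replicate 2 at 72 h the count was 30 of 97 (30.9%, against 30.8% of all regions), so the gap to the background rested on that library. Without WT replicate 2 at 0 h the count was 7 of 100 (7.0%, against 20.9%), and for peaks of fold 8 or more it was 10 of 77 (13.0%, against 15.6%). The difference between 4.04% and 13.0% was not tested.

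The reverse was seen at 1 of 99 regions (1.01%, against 0.576%). This was chr12:116626590-116627120, with fold 5.39 and 12.8 in WT at 72 h and no peak in any other library. Without WT replicate 1 at 72 h the count was 4 (4.04%, against 4.11%), and with lists of equal length it was 7 of 45 (15.6%, against 4.91%). No immunoglobulin region had a peak in at least 3 libraries at 72 h and none at 0 h (0 of 99, against 0.162% of all regions).

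In DKO cells, 22 of 99 regions were called in both naive libraries and in no cultured one (22.2%, against 29.1% of all regions), 17 in the heavy chain and 5 in the kappa window. The 5 of highest rank were chr6:70741922-70742703 (fold 17.2 and 13.3), chr12:116652002-116652807 (8.04 and 12.2), chr12:116514859-116515937 (10.5 and 13.0), chr12:116246471-116247086 (11.4 and 9.41) and chr12:116409756-116410488 (10.95 and 9.85). Each was called in both naive WT libraries and in cultured WT replicate 2, and the first of them in WT replicate 1 too. The reverse, at 72 h and not at 0 h, was seen at 0 of 99 regions (against 0.116%). Without DKO replicate 2 at 72 h the count was 51 (51.5%, against 43.4%), above the background and not below it. With lists of equal length it was 1 of 45 (2.22%, against 6.50%).

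Single regions were also tested over the whole table, with little power. With 4 libraries against 4 the smallest p is 0.0286, so a region could pass after adjustment only if most regions of the table reached that value, and a count of 0 says nothing about single regions. For genotype over both times, Fisher's exact test (two-sided, 4 libraries against 4 at each region) gave 0 immunoglobulin regions with an unadjusted p under 0.05 (against 0.51% of all regions) and 0 after Benjamini-Hochberg adjustment (against 0.0%). For time over both genotypes, 3 of 99 regions reached the smallest p this exact test can give, 0.0286 (3.03%, against 7.59%), and 0 passed after adjustment (smallest adjusted p = 0.376, against 0.0% of all regions). The 3 were found in all 4 libraries at 0 h and none at 72 h, a pattern seen at 7.51% of all regions. They were chr12:115616993-115617804, chr12:116467995-116468757 and chr12:116598348-116598790.

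The last heavy chain region, chr12:117287076-117288340, had 7.6 in naive WT replicate 1, 6.45 and 12.8 in naive DKO, 7.61 in cultured WT replicate 2 and 4.54 in cultured DKO replicate 2. It had no peak in WT replicate 2 at 0 h, nor in either first replicate at 72 h.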

How the data were processed

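CTCF CUT&RUN peak lists of 8 libraries (4 groups of 2) and 1 IgG list were used. Per the submitters' processing notes, Bowtie2 2.2.5, MACS2 2.1.1 and mm9 were used, with FastQC; the control, thresholds and read totals are not given in the sources used here. In the deposited lists, called per library, each peak has a fold (a ratio over its library's local background), a -log10 p, a -log10 q and a score from the authors' peak caller; the score was not used. Depth is unknown, so precision rests on the number of libraries.

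Peaks on chromosomes 1 to 19 and X were merged at 1 bp overlap, and 5 CTCF peaks elsewhere were left out. Ranks are percentiles of -log10 p within a list. Counts and shares were compared by exact permutation within genotype or time, densities by exact sign flips over libraries, and single regions by Fisher's exact test, adjusted (Benjamini-Hochberg) over 39574 regions. Python 3.11.15 and scipy 1.17.1 were used.

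Named regions were the 3 of highest rank per locus, the 12 highest among those in all 8 libraries, up to 5 per specific set, window ends, densest stretches, longest gaps, and any region tied to genotype or new at 72 h. The members and lists were chosen with earlier results of these data known. The naive rank order, with the regions named from it, and the midpoint split were added after values were seen. Alternatives were stricter q and fold, equal list lengths, other overlap rules, narrowed windows, a replicate block and leaving out each library.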

Additional observations from a re-analysis of the deposited data

How the results depend on the processing

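In lists shortened to equal length the count differences reversed, to 3 for DKO minus WT and 4.5 for 72 h minus 0 h. The DKO minus WT share reversed for fold 8 or more (-0.0040 points) and narrowed windows (-0.00364). The 72 h minus 0 h share stayed positive (exact permutation p from 0.0556 to 0.778). Under equal length, 1 of 45 regions was specific to WT at 0 h (2.22%, against 3.03% of all regions). At 72 h it was 1 for each genotype (2.22%, against 3.03% for WT and 2.78% for DKO). WT 72 h over 0 h gave 7 (15.6%, against 4.91%). Each direction of time in DKO gave 1 (2.22%, against 6.50% for 0 h only and 4.95% for 72 h only). With -log10 q of at least 5 there were 87 regions. Of these, 1 was specific to DKO at 0 h (1.15%, against 2.87%) and 3 to WT at 72 h (3.45%, against 6.50%). WT 72 h over 0 h gave 0 (against 0.598%). For fold 8 or more, 3 of 77 regions were specific to WT at 72 h (3.90%, against 6.23%). WT 0 h over 72 h gave 10 (13.0%, against 15.6%), and the reverse gave 0 (against 0.433%). Matching by summits gave 2 of 129 for that reverse (1.55%, against 1.20%). Counting a peak in at least 1 library gave 7 of 99 for DKO at 0 h (against 4042 of all 39574 regions). It gave 27 for WT at 72 h (against 10387 of all). WT 0 h over 72 h gave 7 (against 9698), and the reverse gave 4 (against 1642). Taken as shares of 99 and of 39574, the 27 and the 4 were near those of all regions. Both counts of 7 were below, most of all for WT 0 h over 72 h. For fold 8 or more the kept share in DKO replicate 1 was 22% (all regions 24.9%). Kept shares were then 56% in WT replicate 1 and 58% in DKO replicate 2 (all regions 52.4% and 51.2%). With 18 regions under equal length they were 94.4% in both DKO libraries (all regions 83.9% and 89.2%) and 77.8% and 88.9% in WT (all 88.8% and 89.7%). They were 100% (91.7% in DKO replicate 1) in the highest band of naive rank. Lambda gave no density for fold 8 or more, equal length or narrowed windows.

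Leaving out 1 library gave count differences from -21.8 to -1.83 (DKO minus WT) and -38.7 to -19.3 (72 h minus 0 h), and shares from -0.0169 to 0.0159 and 0.0361 to 0.0625. Specific regions ran from 3 to 7 for WT and 3 to 7 for DKO at 0 h, and 6 to 27 for WT and 0 to 0 for DKO at 72 h. They ran from 4 to 30 and 1 to 4 for time in WT, and 22 to 51 and 0 to 0 for time in DKO. Shares over all regions moved as well. The 27 for WT at 72 h were 27.3%, against 25.8% without WT replicate 1 and 17.4% without DKO replicate 2. For 0 h only, the highest share was 30.9% in WT (against 30.8%) and 51.5% in DKO (against 43.4%). The replicate block (16 assignments) gave -14 (exact permutation p = 0.25) and -29 (p = 0.25) regions, and shares of 0.00463 (p = 0.625) and 0.05 (p = 0.125). Deviations of same-numbered replicates over single regions had correlations from -0.0167 to 0.0251. At 72 h replicate 1 had the shorter list in both genotypes (17335 against 26630 peaks in WT, 10339 against 16234 in DKO). Whether the numbers pair the samples therefore cannot be told.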
